A study of Homo sapiens with 12 samples.

Results

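Matrix metalloproteases (MMP), their relatives ADAM and ADAMTS, the protease-like ADAMTSL proteins and the tissue inhibitors of metalloproteases (TIMP) were followed in AC16 cells that received EP300 siRNA, H2O2 or both. Members were all gene symbols of the deposited count table that begin with MMP, ADAM, ADAMTS, ADAMTSL or TIMP and a digit, 63 of 17197 symbols. They were 20 MMP, 16 ADAM, 17 ADAMTS, 4 ADAMTSL and 4 TIMP genes. The remaining 2, MMP24OS and MMP24-AS1-EDEM2, match by name but encode neither a protease nor an inhibitor, and they are counted with the 63. Of the 63, 48 passed the filter on low counts and were tested. The other 15 had at most 19 counts in any library.

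AC16 is an established human line made by fusing adult ventricular heart cells with transformed fibroblasts. RNA was sequenced from 12 libraries in 4 groups of 3: siEP300.H2O2 (EP300 siRNA, then H2O2), siNC.H2O2 (negative control siRNA, then H2O2), siEP300 (EP300 siRNA, no H2O2) and siNC (negative control siRNA, no H2O2). Per the labels' protocols all cells were transfected with jetPRIME in medium without serum, H2O2 was given 12 h later for 1 h, and RNA was taken after 48 h. The labelled dose is 200 mM, and its unit is uncertain. Whether the 3 libraries in each group came from separate cultures is not stated, so p-values measure the spread between these libraries, which may be technical.

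Totals ran from 16081437 to 19033679 counts per library. EP300 had 36.29% of its siNC.H2O2 level left in siEP300.H2O2 and 43.93% of its siNC level left in siEP300 (edgeR adjusted p = 5.9e-07 and 3.6e-06). For the same 6 libraries another label gives MLF1 as the target, and MLF1 had 82.05% and 86.14% left (edgeR adjusted p = 0.00069 and 0.0052). Of 16 cardiomyocyte markers in the table, 11 averaged under 1 CPM, among them the sarcomere genes TNNT2, MYH6, MYH7 and MYL2, so the heart muscle label has little support in sarcomere transcripts. The other cardiomyocyte markers were GJA1 at 153.7, NPPB at 42.6, GATA6 at 34.2, GATA4 at 10.5 and DES at 2.66 CPM on average. Of 13 fibroblast markers 1 averaged under 1 CPM. Libraries of a group also differed along a shared axis. On it siNC library 1 and siNC.H2O2 library 7 lay at opposite ends, with scores of 17.6 and -13.9, and siEP300.H2O2 library 10 scored 15.8. Of the 48 tested members, siNC library 1 was the highest of its group for 21 and the lowest for 14. For siNC.H2O2 library 7 these were 11 and 22. The same counts over all genes were not made.

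MMPs are zinc-dependent proteases that cut collagens and other matrix proteins. ADAMs are mostly membrane-bound and release growth factors, receptors and adhesion molecules from the cell surface, while secreted ADAMTS proteases cut proteoglycans and mature procollagens. ADAMTSL proteins resemble ADAMTS but lack the protease part. TIMPs block the active site of these enzymes, and in the heart the balance between proteases and TIMPs accompanies scar formation and chamber remodelling. In bulk RNA, fewer cells that express a gene and less RNA per cell cannot be told apart.

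Levels of different genes were compared as deposited FPKM, which divides fragments by gene length and library total. In siNC, 16 members averaged at least 10 FPKM, 20 lay between 1 and 10 and 27 were below 1. TIMP1 had the highest mean there (263 ± 21.3 FPKM, SD, n = 3), followed by ADAM9 (179 ± 10.4) and TIMP2 (169 ± 1.96). MMP2 (57.1 ± 2.98), ADAM10 (45.7 ± 4.72) and MMP14 (40.9 ± 1.45) came next. The order of ADAM9 and TIMP2 lay within their spread, and so did that of ADAM10 and MMP14. The highest levels thus belonged to inhibitors, sheddases, the gelatinase MMP2 and its membrane-bound activator MMP14.

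Summed FPKM of the 20 MMPs was lower with EP300 siRNA, and that of the 4 TIMPs was higher with H2O2. The MMP sum was 85.4, 84.7 and 93.6 FPKM in siEP300.H2O2, against 152, 155 and 162 FPKM in siNC.H2O2. Without H2O2 it was 82.7, 83.7 and 81.8 FPKM in siEP300, against 131, 132 and 138 FPKM in siNC. The libraries of each pair of groups did not overlap. MMP2 made up 14.5% ± 0.79 of the MMP sum in siEP300.H2O2, 34.5% ± 1.42 in siNC.H2O2, 19.6% ± 0.451 in siEP300 and 42.8% ± 1.56 in siNC (SD, n = 3 each). MMP14 made up 60.3% ± 1.54, 44.9% ± 1.73, 51.0% ± 0.884 and 30.6% ± 0.473 in the same groups. MMP2 was therefore the larger share in siNC, and MMP14 was the larger share in the other 3 groups. Without MMP2 and MMP14 the sum was still lower with EP300 siRNA, at 22.1 ± 1.27 FPKM in siEP300.H2O2 against 32.3 ± 1.95 in siNC.H2O2 and 24.3 ± 1.09 in siEP300 against 35.5 ± 1.40 in siNC.

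The TIMP sum was 543 ± 33.6 FPKM in siEP300.H2O2 and 639 ± 32.1 in siNC.H2O2, while it was 410.1 ± 3.08 in siEP300 and 455 ± 20.1 in siNC. The TIMP sum was 6.19 ± 0.543 times the MMP sum in siEP300.H2O2 and 4.09 ± 0.324 times in siNC.H2O2, and it was 4.96 ± 0.0361 times in siEP300 and 3.41 ± 0.161 times in siNC. Its lowest library with EP300 siRNA was above the highest with control siRNA in each H2O2 state. ADAM sums overlapped in treated cells, at 327 ± 15.1 FPKM in siEP300.H2O2 and 338 ± 31.3 in siNC.H2O2, while without H2O2 they lay apart, at 372 ± 2.46 in siEP300 and 323 ± 18.6 in siNC. These sums were chosen with the members' values known and carry no test.

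**Figure D1:**
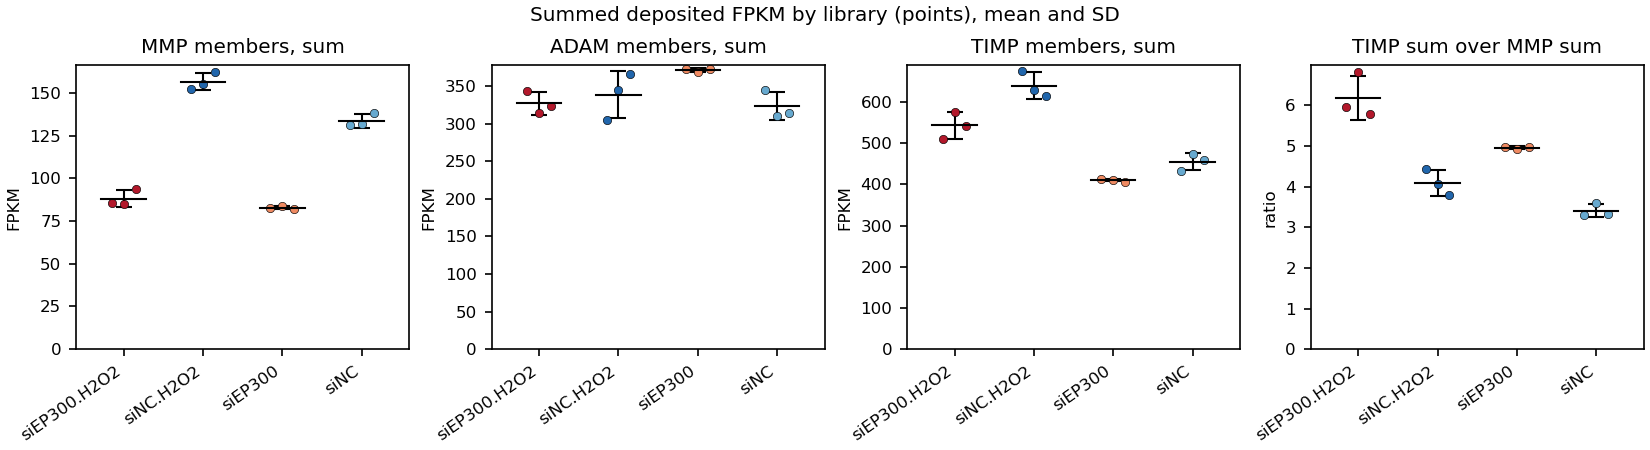
Summed deposited FPKM of the 20 MMP, 16 ADAM and 4 TIMP members and the ratio of the TIMP sum to the MMP sum, on linear axes that start at 0. Points are libraries, bars are the mean and SD of 3; the MMP sum is 82.7 and 87.9 FPKM in the EP300 siRNA groups and 133.5 and 156 FPKM in the control siRNA groups.

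The first question was what EP300 siRNA changed. Level changes were tested on counts with edgeR, as log2 fold changes with their standard error (SE). A member was called at an adjusted p under 0.05. Levels of a single gene are given as CPM, the count divided by the scaled library total and brought to a common library size. In H2O2-treated cells 8 of the 48 tested members rose and 22 fell, 62.5% of them, against 59.0% of all 13171 genes tested (28.4% higher, 30.6% lower). Without H2O2 13 rose and 17 fell, again 62.5%, against 61.5% of all genes (30.1% higher, 31.4% lower). The share called was thus close to that of all genes. Falls of at least 2-fold were found for 12 of the 48 members in each state, against 895 of 13171 genes (6.80%) with H2O2 and 914 (6.94%) without it. Rises of that size were found for 1 and 2 of the 48, against 345 (2.62%) and 386 (2.93%) of all genes. Of the members with falls of at least 2-fold, ADAM32, ADAMTS14 and MMP25 passed the filter on low counts only because of their control siRNA libraries. All genes went through the same filter. The median log2 fold change over the tested members was -0.255 with H2O2 and -0.102 without, against -0.0186 and -0.00424 over all genes.

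The comparisons with H2O2 and without it share no library, but all libraries were fitted together with a shared estimate of the spread. Of the 48 tested members 17 fell in both states (35.4%, against 25.1% of all genes). A further 5 rose in both (10.4%, against 23.4%) and 11 were called in neither (22.9%, against 28.3%). TIMP3 was called in opposite directions, as were 0.364% of all genes. Those lower in both were MMP2, MMP11, MMP15, MMP17, MMP23B and MMP25, ADAM8, ADAM12, ADAM32 and ADAM33, ADAMTS2, ADAMTS10, ADAMTS14 and ADAMTS15, ADAMTSL4, TIMP2 and MMP24OS. Of these, ADAM32, ADAMTS14 and MMP25 passed the filter on low counts only because of their control siRNA libraries. Those higher in both were ADAM15, ADAM17, ADAM19, ADAMTS12 and TIMP4.

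**Figure D2:**
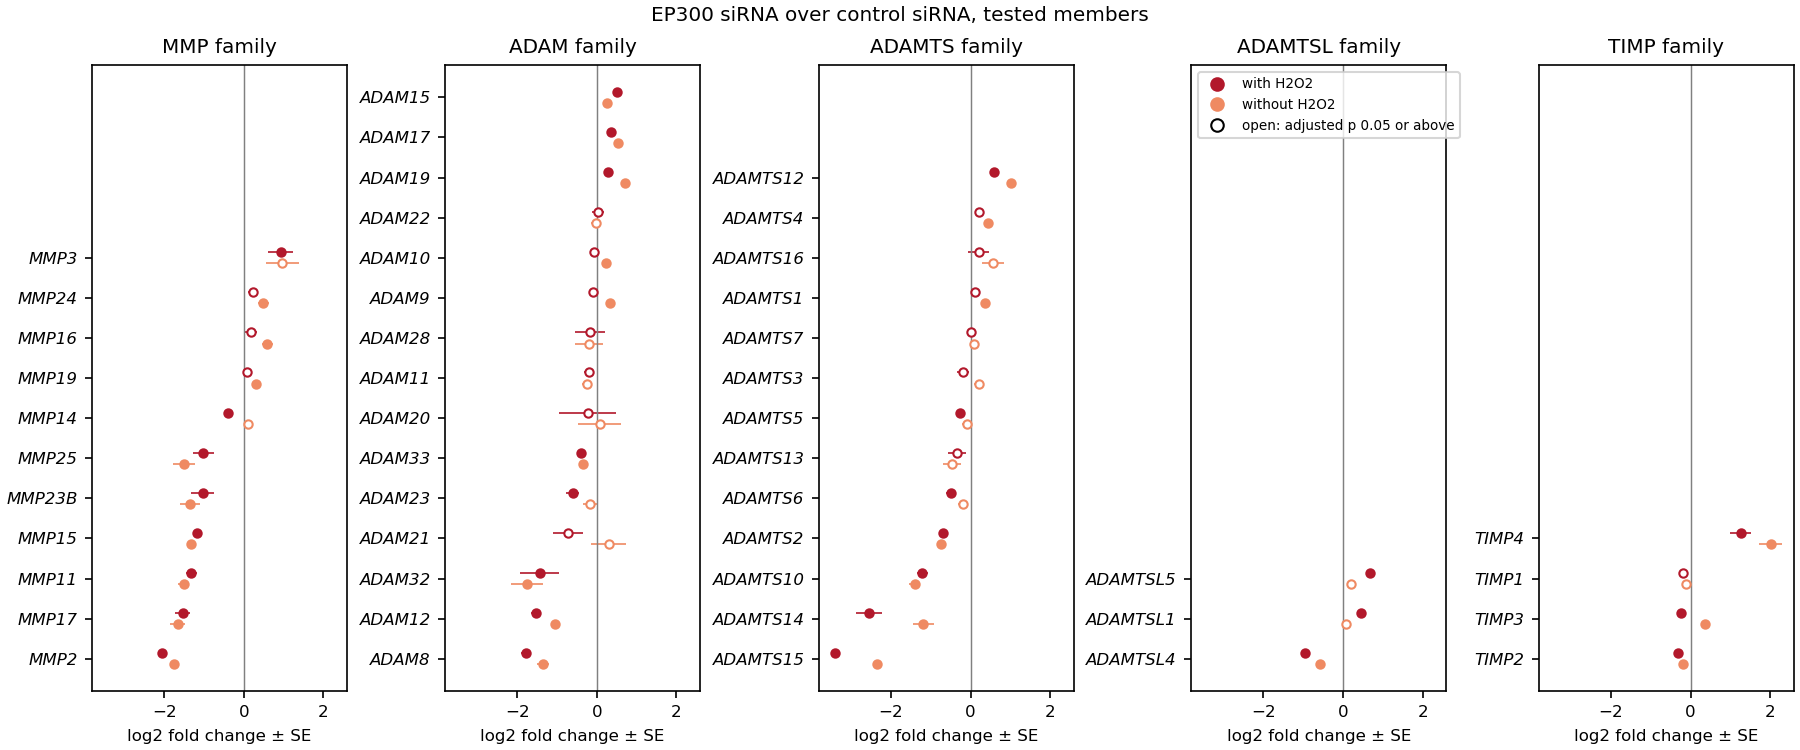
Log2 fold change of EP300 siRNA over control siRNA with its SE for the tested MMP, ADAM, ADAMTS, ADAMTSL and TIMP genes, with H2O2 (dark) and without (light); open points had an adjusted p of 0.05 or above. MMP2 and ADAMTS15 lie farthest to the left in their families, at -2.06 and -3.40 with H2O2 and -1.75 and -2.36 without.

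Gelatinase MMP2, which degrades basement membrane collagen, lies at chromosome 16, positions 55389700 to 55506691, plus strand of GRCh38. It stood at 41.6, 36.7 and 45.7 CPM in siEP300.H2O2, against 162, 167 and 188 CPM in siNC.H2O2. Without H2O2 the levels were 51.8, 51.0 and 52.3 CPM in siEP300, against 175, 164 and 180.1 CPM in siNC. All EP300 siRNA libraries lay far below all control siRNA libraries. The log2 fold change was -2.06 ± 0.078 (SE, edgeR adjusted p = 4.7e-11) with H2O2 and -1.75 ± 0.077 (SE, edgeR adjusted p = 1.8e-10) without.

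The membrane-bound MMPs did not move together. MMP14, the transmembrane collagenase that activates proMMP2 at the cell surface (chromosome 14, positions 22836557 to 22849027, plus strand), stood at 173, 182 and 198 CPM in siEP300.H2O2, against 244, 243 and 239 CPM in siNC.H2O2. Untreated cells had 141, 145 and 144 CPM in siEP300, against 128, 134 and 138 CPM in siNC. The EP300 siRNA libraries were all lower with H2O2 and all higher without it, and the call was made with H2O2 alone, at -0.39 ± 0.055 (SE, edgeR adjusted p = 2.3e-05) against 0.10 ± 0.056 (SE, edgeR adjusted p = 0.12). MMP15, another transmembrane MMP (chromosome 16, positions 58025566 to 58046901, plus strand), stood at 19.1, 22.3 and 23.6 CPM in siEP300.H2O2, against 47.9, 47.3 and 52.1 CPM in siNC.H2O2. Its levels without H2O2 were 17.1, 18.4 and 15.8 CPM in siEP300, against 41.6, 42.5 and 44.3 CPM in siNC. The groups did not overlap, and MMP15 fell by 1.18 ± 0.08 (SE, edgeR adjusted p = 1.3e-08) and 1.33 ± 0.082 (SE, edgeR adjusted p = 5.1e-09) on the log2 scale with and without H2O2.

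MMP17, an MMP held at the surface by a lipid anchor (chromosome 12, positions 131828393 to 131851783, plus strand), was measured at 1.38, 1.43 and 1.49 CPM in siEP300.H2O2, against 4.26, 4.46 and 3.79 CPM in siNC.H2O2. In cells without H2O2 it had 1.31, 1.42 and 1.15 CPM in siEP300, against 3.27, 3.80 and 5.20 CPM in siNC. Its log2 fold changes were -1.53 ± 0.19 (SE, edgeR adjusted p = 7.4e-06) and -1.66 ± 0.19 (SE, edgeR adjusted p = 3.5e-06), with no overlap of libraries. MMP25, the other lipid-anchored MMP, was at 0.633 ± 0.0714 CPM in siEP300.H2O2 against 1.27 ± 0.284 in siNC.H2O2, and at 0.388 ± 0.10 in siEP300 against 1.10 ± 0.0890 in siNC. It was called lower in both states (-1.01 ± 0.25 SE, edgeR adjusted p = 0.0032 and -1.50 ± 0.29 SE, edgeR adjusted p = 0.00036), and an antisense gene covers 35.2% of its exon bases. The strand setting of the counting is not given in the sources used here, so reads of overlapping genes cannot be told apart.

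MMP11, known as stromelysin 3 (chromosome 22, positions 23768226 to 23784316, plus strand), stood at 2.87, 2.57 and 2.54 CPM in siEP300.H2O2, against 5.66, 6.79 and 7.42 CPM in siNC.H2O2. The untreated groups held 3.50, 4.02 and 3.11 CPM in siEP300, against 9.24, 10.7 and 10.4 CPM in siNC. It was lower in each EP300 siRNA library, at -1.31 ± 0.14 (SE, edgeR adjusted p = 2e-06) with H2O2 and -1.51 ± 0.13 (SE, edgeR adjusted p = 1.5e-07) without. MMP23B, a membrane MMP with a near-identical copy (MMP23A) that could share its reads (chromosome 1, positions 1632095 to 1635263, plus strand), stood at 0.773, 0.572 and 0.992 CPM in siEP300.H2O2, against 1.94, 1.26 and 1.57 CPM in siNC.H2O2. Its levels without H2O2 were 0.983, 0.850 and 1.09 CPM in siEP300, against 2.11, 3.33 and 2.01 CPM in siNC. It was called lower in both states (-1.03 ± 0.29 SE, edgeR adjusted p = 0.0073 and -1.34 ± 0.26 SE, edgeR adjusted p = 0.00036).

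The remaining tested MMPs did not fall. MMP16, MMP19 and MMP24 rose without H2O2 (0.60 ± 0.15 SE, edgeR adjusted p = 0.0028, 0.31 ± 0.085 SE, edgeR adjusted p = 0.0055 and 0.49 ± 0.13 SE, edgeR adjusted p = 0.0048), while their values with H2O2 were 0.19, 0.092 and 0.23 and were not called. MMP24 shares 18.1% of its exon bases with MMP24OS on the opposite strand, and MMP24OS was called lower in both states (-0.36 and -0.40), with H2O2 not without siEP300.H2O2 library 10 (-0.27, edgeR adjusted p = 0.057). MMP3, stromelysin 1, had 19, 19 and 26 counts in siEP300.H2O2 against 14, 11 and 8 in siNC.H2O2 and was called higher there (0.92 ± 0.31 SE, edgeR adjusted p = 0.018); without H2O2 it had 14, 10 and 8 counts in siEP300 against 3, 9 and 5 in siNC and was not called (0.97 ± 0.41 SE, edgeR adjusted p = 0.053). The call with H2O2 was not made without siNC.H2O2 library 9 (edgeR adjusted p = 0.083), without siEP300.H2O2 library 12 (edgeR adjusted p = 0.081) or with DESeq2 (adjusted p = 0.054).

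MMP3 belongs to a cluster of MMP genes on chromosome 11. The 7 members of that cluster in the table, MMP1, MMP3, MMP7, MMP8, MMP10, MMP12 and MMP13, span 435.2 kb, from position 102520508 to 102955734. MMP3 was the only 1 of the 7 to pass the filter on low counts; the collagenases MMP1, MMP8 and MMP13, the matrilysin MMP7, the stromelysin MMP10 and the elastase MMP12 reached at most 5 counts in any library. Of the 15 members not tested, 12 had at most 5 counts in every library. The gelatinase MMP9 had summed counts of 2 in siEP300.H2O2, 22 in siNC.H2O2, 0 in siEP300 and 7 in siNC, too few for the filter. In the same groups the untested ADAMTSL2 had 3, 26, 3 and 25 counts, and MMP28 had 6, 14, 15 and 40.

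Promoters are shown for 2 members of that near-silent cluster that hold an AP-1 motif and for 3 members that changed. RefSeq promoters (GRCh38.p14, 250 bases before to 50 after the start) matched 40 of the 63 members. The 150 bases before the start are printed 5′ to 3′ along the gene's strand, with motifs in capitals. The AP-1 motif was searched on both strands as TGANTCA. The core promoter motif bound by the TATA-binding protein was searched on the gene's strand alone, as TATAAA. The SP1 motif was searched on both strands as GGGCGG. None of the motifs overlap in the stretches shown.
MMP7, chr11:102530748-102530897, minus strand: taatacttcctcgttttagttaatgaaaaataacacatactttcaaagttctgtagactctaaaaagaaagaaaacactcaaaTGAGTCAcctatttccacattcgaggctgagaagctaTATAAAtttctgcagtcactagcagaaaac
MMP10, chr11:102780629-102780778, minus strand: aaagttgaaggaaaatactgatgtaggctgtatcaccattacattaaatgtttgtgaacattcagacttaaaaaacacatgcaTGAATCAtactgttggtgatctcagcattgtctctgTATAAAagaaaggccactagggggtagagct
MMP15, chr16:58025604-58025753, plus strand: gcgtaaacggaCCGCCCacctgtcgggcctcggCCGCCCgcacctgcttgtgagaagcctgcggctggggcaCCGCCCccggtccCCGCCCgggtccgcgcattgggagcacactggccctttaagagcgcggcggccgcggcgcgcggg
ADAMTS12, chr5:33891991-33892140, minus strand: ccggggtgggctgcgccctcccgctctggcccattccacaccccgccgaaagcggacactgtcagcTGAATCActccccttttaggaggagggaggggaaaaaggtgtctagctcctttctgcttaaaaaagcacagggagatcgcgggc
TIMP3, chr22:32801555-32801704, plus strand: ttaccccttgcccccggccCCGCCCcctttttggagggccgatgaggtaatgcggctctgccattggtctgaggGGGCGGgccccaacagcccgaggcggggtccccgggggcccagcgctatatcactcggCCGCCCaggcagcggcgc

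Of the cluster MMP7, MMP8 and MMP10 had a promoter entry, and MMP8, not printed, holds no AP-1 motif. MMP7 and MMP10 each hold an AP-1 motif that begins 67 bases before the start, with a TATA box motif after it, and no SP1 motif in the printed stretch. ADAMTS12, which rose with EP300 siRNA, has its AP-1 motif 84 bases before the start and was the tested member, 1 of 31 with a promoter, that held one. MMP15 holds 4 SP1 motifs there and TIMP3 holds 3. Over the whole 300 bases, the AP-1 motif was found in 3 of the 40 matched members (7.50%), against 4.56% of the promoters of genes tested and 7.76% of all promoters. The SP1 motif was found in 30 (75.0%), against 69.8% and 44.6%. All 10 matched members that fell with EP300 siRNA in both states hold the SP1 motif, as do 4 of the 5 that rose in both and 83.9% of the tested members with a promoter. The median GC content was 75.2% for those that fell, 74.7% for those that rose, 72.7% for tested members and 65.3% for the genes tested. A match is a description of letters, not a binding site.

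ADAMs moved in both directions. ADAM12, a disintegrin-metalloprotease of mesenchymal cells (chromosome 10, positions 126012381 to 126388455, minus strand), stood at 31.8, 27.4 and 30.9 CPM in siEP300.H2O2, against 75.4, 87.0 and 97.1 CPM in siNC.H2O2. Without H2O2 the levels were 33.5, 33.0 and 35.9 CPM in siEP300, against 83.2, 59.2 and 67.6 CPM in siNC. It fell by 1.52 ± 0.12 (SE, edgeR adjusted p = 4.2e-08) and 1.04 ± 0.12 (SE, edgeR adjusted p = 2.1e-06) on the log2 scale with and without H2O2. ADAM8, best known from leukocytes (chromosome 10, positions 133262403 to 133276868, minus strand), stood at 3.20, 3.83 and 3.14 CPM in siEP300.H2O2, against 12.3, 10.2 and 12.4 CPM in siNC.H2O2. Untreated cells had 2.84, 2.66 and 2.34 CPM in siEP300, against 6.65, 5.99 and 7.37 CPM in siNC. It fell by 1.78 ± 0.13 (SE, edgeR adjusted p = 2.2e-08) and 1.35 ± 0.14 (SE, edgeR adjusted p = 1.1e-06). For neither gene did the groups overlap. The leukocyte marker PTPRC was at 0.297 CPM on average over the 12 libraries, and 5 leukocyte markers summed to 68.2 to 81.0 CPM in siEP300.H2O2, 53.1 to 55.2 in siNC.H2O2, 42.4 to 46.6 in siEP300 and 34.5 to 43.5 in siNC. Most of that sum was CD68, at 47.3 CPM on average, with CD14 at 5.60, LYZ at 0.241 and ITGAM at 0.0818 CPM. The sum therefore follows CD68 and is no measure of leukocytes.

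ADAM17, the sheddase of TNF and EGF receptor ligands (chromosome 2, positions 9488486 to 9556732, minus strand), was higher with EP300 siRNA. It stood at 113, 91.1 and 100.3 CPM in siEP300.H2O2, against 67.1, 80.6 and 89.8 CPM in siNC.H2O2. In cells without H2O2 it had 113, 114 and 117 CPM in siEP300, against 89.4, 69.5 and 79.1 CPM in siNC. It rose by 0.36 ± 0.11 and 0.53 ± 0.11 (SE, edgeR adjusted p = 0.009 and edgeR adjusted p = 0.00049). Library 7 was the lowest of siNC.H2O2 and library 1 the highest of siNC, and 12.3% of the exon bases of ADAM17 overlap IAH1 on the opposite strand. ADAM15, also called metargidin (chromosome 1, positions 155050566 to 155062775, plus strand), stood at 81.0, 92.8 and 90.1 CPM in siEP300.H2O2, against 63.0, 60.2 and 61.8 CPM in siNC.H2O2. Its levels without H2O2 were 73.2, 71.3 and 76.3 CPM in siEP300, against 56.5, 63.1 and 64.9 CPM in siNC. It was higher in every EP300 siRNA library (0.51 ± 0.067 SE, edgeR adjusted p = 1.1e-05 and 0.26 ± 0.067 SE, edgeR adjusted p = 0.0035).

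ADAM19, a sheddase of neuregulins needed for heart valve and septum formation in mice (chromosome 5, positions 157395534 to 157575775, minus strand), stood at 138, 130.5 and 137 CPM in siEP300.H2O2, against 104, 115 and 117 CPM in siNC.H2O2. The untreated groups held 144, 133 and 139 CPM in siEP300, against 95.3, 74.5 and 86.9 CPM in siNC. It rose in both states without overlap (0.27 ± 0.077 SE, edgeR adjusted p = 0.007 and 0.70 ± 0.078 SE, edgeR adjusted p = 2.1e-06). ADAM10, the main sheddase of Notch receptors and cadherins (chromosome 15, positions 58588807 to 58749978, minus strand), stood at 266, 225 and 251 CPM in siEP300.H2O2, against 223, 263 and 291 CPM in siNC.H2O2. Without H2O2 the levels were 237, 235 and 236 CPM in siEP300, against 224, 181 and 197 CPM in siNC. The H2O2-treated groups overlapped (-0.066 ± 0.093 SE, edgeR adjusted p = 0.56), and the rise without H2O2 was small (0.23 ± 0.093 SE, edgeR adjusted p = 0.04). That rise was not called without siNC library 2 or 3 or siEP300 library 4, 5 or 6 (edgeR adjusted p of 0.17, 0.10, 0.081, 0.075 and 0.076) or with FPKM (limma adjusted p = 0.12).

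ADAM9, the ADAM with the highest level, stood at 709.8, 646 and 672 CPM in siEP300.H2O2, against 649.5, 728 and 775 CPM in siNC.H2O2. Untreated cells had 816, 810.5 and 807 CPM in siEP300, against 695, 610.3 and 618 CPM in siNC. It rose without H2O2 (0.34 ± 0.068 SE, edgeR adjusted p = 0.00056) and was not called with it (-0.086 ± 0.068 SE, edgeR adjusted p = 0.29), where the libraries overlapped. Its neighbour ADAM32, 1.8 kb from it on chromosome 8, had 7, 4 and 2 counts in siEP300.H2O2 against 14, 15 and 6 in siNC.H2O2, and 7, 4 and 7 in siEP300 against 22, 16 and 26 in siNC. ADAM32 was called lower in both states (-1.43 and -1.74), though with H2O2 not without siNC.H2O2 library 7 or 8 or siEP300.H2O2 library 11 or 12 (edgeR adjusted p of 0.059, 0.092, 0.053 and 0.090). It passed the filter on low counts only because of its control siRNA libraries, where it was higher. ADAM33 fell in both states (-0.39 ± 0.071 SE, edgeR adjusted p = 0.00028 and -0.34 ± 0.066 SE, edgeR adjusted p = 0.00041). ADAM23, called lower with H2O2, had log2 fold changes of -0.61 with and -0.18 without it. ADAM11, ADAM20, ADAM21, ADAM22 and ADAM28 were called in neither state, and ADAM20, ADAM21 and ADAM28 averaged under 1 CPM in siNC.

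Of all members, ADAMTS15, a protease of the proteoglycans aggrecan and versican (chromosome 11, positions 130448974 to 130476641, plus strand), fell the most in each state. It stood at 2.26, 1.77 and 1.54 CPM in siEP300.H2O2, against 19.2, 19.7 and 20 CPM in siNC.H2O2. In cells without H2O2 it had 5.13, 5.67 and 5.50 CPM in siEP300, against 27.1, 26.5 and 30.3 CPM in siNC. No library of an EP300 siRNA group came near a control library, and it fell by 3.40 ± 0.12 (SE, edgeR adjusted p = 3.1e-11) with H2O2 and by 2.36 ± 0.10 (SE, edgeR adjusted p = 9.5e-11) without. Its neighbour ADAMTS8, 19981 bases away with no coding gene between them, had at most 2 counts in any library.

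ADAMTS14, which trims procollagen ends (chromosome 10, positions 70672803 to 70762441, plus strand), stood at 0.166, 0.286 and 0.441 CPM in siEP300.H2O2, against 1.78, 1.76 and 1.79 CPM in siNC.H2O2. The untreated groups held 0.437, 1.13 and 0.818 CPM in siEP300, against 1.95, 1.77 and 1.70 CPM in siNC. ADAMTS2, the main procollagen N-proteinase, was at 17.7 ± 0.872 CPM in siEP300.H2O2 against 28.6 ± 2.27 in siNC.H2O2, and at 17.1 ± 1.21 in siEP300 against 28.6 ± 0.135 in siNC. Both fell in each state, ADAMTS14 by 2.55 ± 0.34 (SE, edgeR adjusted p = 1.3e-05) and 1.18 ± 0.27 (SE, edgeR adjusted p = 0.0015) and ADAMTS2 by 0.69 ± 0.077 (SE, edgeR adjusted p = 2.3e-06) and 0.75 ± 0.077 (SE, edgeR adjusted p = 1e-06). With FPKM and a pseudocount of 0.1 the value of ADAMTS14 with H2O2 was -1.62 (limma adjusted p = 1.3e-05). ADAMTS14 had 3, 5 and 8 counts in siEP300.H2O2 and 8, 20 and 15 in siEP300. It passed the filter on low counts only because of its control siRNA libraries, where it was higher. ADAMTS3, a further procollagen N-proteinase, was called in neither state (-0.19 and 0.21).

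ADAMTS10, which acts on fibrillin microfibrils (chromosome 19, positions 8580242 to 8610735, minus strand), stood at 2.48, 3.26 and 2.70 CPM in siEP300.H2O2, against 6.03, 6.60 and 6.88 CPM in siNC.H2O2. Without H2O2 the levels were 2.95, 2.15 and 3.05 CPM in siEP300, against 7.60, 7.40 and 6.63 CPM in siNC. It was lower in each EP300 siRNA library (-1.21 ± 0.15 SE, edgeR adjusted p = 5.4e-06 and -1.40 ± 0.14 SE, edgeR adjusted p = 9.6e-07). ADAMTSL4, a fibrillin-binding ADAMTS-like protein (chromosome 1, positions 150549369 to 150560937, plus strand), stood at 37.5, 32.9 and 33.9 CPM in siEP300.H2O2, against 64.6, 64.3 and 73.9 CPM in siNC.H2O2. Untreated cells had 57.7, 61.9 and 60.1 CPM in siEP300, against 86.2, 91.6 and 90.7 CPM in siNC. It fell in both states without overlap (-0.96 ± 0.071 SE, edgeR adjusted p = 3e-08 and -0.58 ± 0.068 SE, edgeR adjusted p = 3.4e-06). The other tested ADAMTS-like genes, ADAMTSL1 and ADAMTSL5, were called higher with H2O2 (0.44 and 0.67), but ADAMTSL1 was 0.11 with FPKM and not called (limma adjusted p = 0.42). ADAMTSL2 was not tested.

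ADAMTS12, a protease of cartilage oligomeric matrix protein (chromosome 5, positions 33523535 to 33892192, minus strand), was the ADAMTS called higher in both states. It stood at 226, 186 and 191 CPM in siEP300.H2O2, against 132, 129 and 143 CPM in siNC.H2O2. In cells without H2O2 it had 195, 188 and 190.5 CPM in siEP300, against 109, 83.7 and 93.2 CPM in siNC. The EP300 siRNA libraries were all higher (0.58 ± 0.087 SE, edgeR adjusted p = 4.7e-05 and 1.01 ± 0.089 SE, edgeR adjusted p = 1.9e-07). With deposited FPKM the values were much smaller, 0.08 with H2O2 and 0.23 without (limma adjusted p = 0.38 and 0.017).

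ADAMTS1, a versican-cutting protease that is induced by inflammation (chromosome 21, positions 26835747 to 26845409, minus strand), stood at 204, 213 and 214 CPM in siEP300.H2O2, against 185, 191 and 212 CPM in siNC.H2O2. The untreated groups held 150.2, 140.5 and 153 CPM in siEP300, against 122, 103 and 119 CPM in siNC. It rose with EP300 siRNA in untreated cells (0.37 ± 0.069 SE, edgeR adjusted p = 0.00031) and was not called in treated cells (0.10 ± 0.068 SE, edgeR adjusted p = 0.22). The aggrecanase ADAMTS4 did likewise (0.44 called, 0.21 not called), while the aggrecanase ADAMTS5, 72.5 kb from ADAMTS1, was called lower in treated cells (-0.26 ± 0.11 SE, edgeR adjusted p = 0.048). That call was lost in 11 alternatives, among them without siNC.H2O2 library 9, where the value was -0.14 (edgeR adjusted p = 0.26). ADAMTS6 was called lower with H2O2 (-0.49 ± 0.12 SE, edgeR adjusted p = 0.0033), and ADAMTS7, ADAMTS13 and ADAMTS16 were called in neither state.

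**Figure D3:**
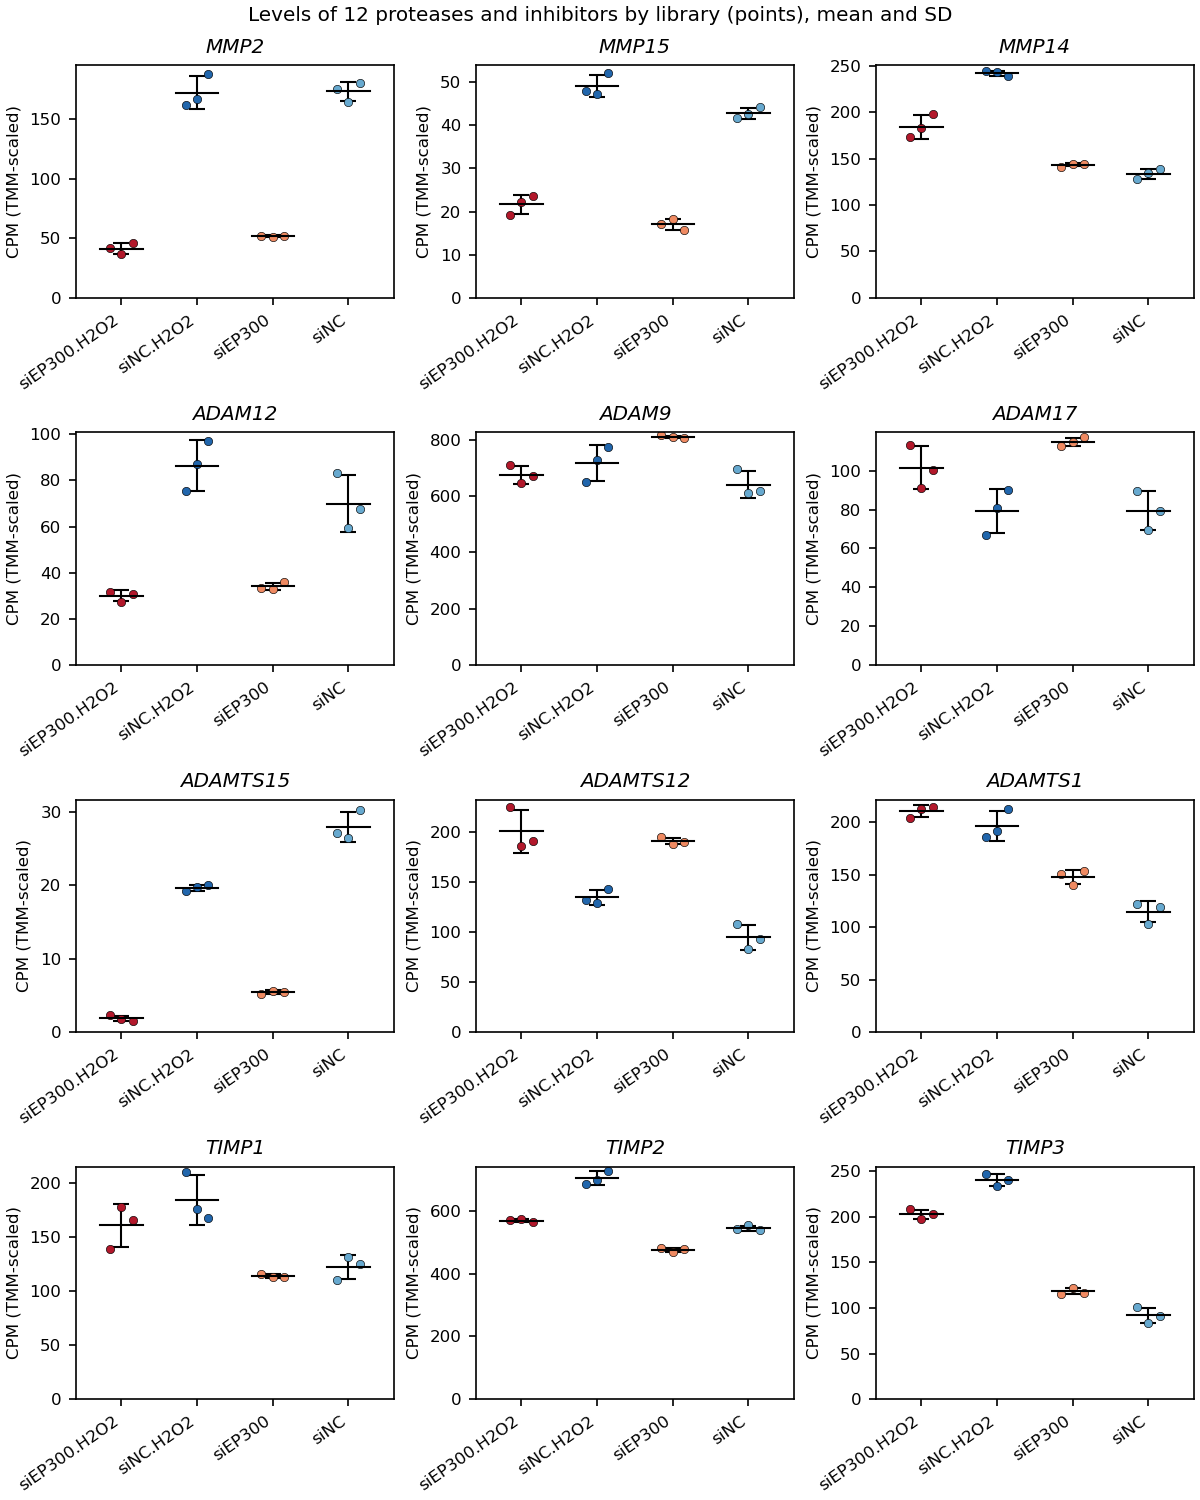
CPM of 12 members in each library (points), with mean and SD of 3, on linear axes that start at 0. The MMP2 panel shows every EP300 siRNA library below every control siRNA library, ADAMTS12 shows the reverse, and TIMP1, TIMP2 and TIMP3 are higher in the groups given H2O2 than in the untreated group with the same siRNA.

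The TIMPs differed in direction with EP300 siRNA. TIMP1 (chromosome X, positions 47582313 to 47586789, plus strand), the TIMP with the highest FPKM, stood at 139, 178 and 166 CPM in siEP300.H2O2, against 210.5, 176 and 168 CPM in siNC.H2O2. Without H2O2 the levels were 116, 113 and 113 CPM in siEP300, against 110.3, 132 and 125 CPM in siNC. It was called in neither state (-0.20 ± 0.10 SE, edgeR adjusted p = 0.088 and -0.10 ± 0.10 SE, edgeR adjusted p = 0.37), and the groups overlapped. TIMP2, which blocks MMPs and also helps MMP14 activate proMMP2 (chromosome 17, positions 78852977 to 78925387, minus strand), stood at 569, 572 and 563 CPM in siEP300.H2O2, against 686, 698 and 727 CPM in siNC.H2O2. Untreated cells had 481, 467 and 478 CPM in siEP300, against 540.4, 554 and 539 CPM in siNC. The EP300 siRNA libraries were all lower by a small step (-0.31 ± 0.045 SE, edgeR adjusted p = 3.4e-05 and -0.20 ± 0.045 SE, edgeR adjusted p = 0.0017).

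TIMP3, a matrix-bound inhibitor that also blocks ADAM17 and ADAMTS enzymes (chromosome 22, positions 32801701 to 32863043, plus strand), stood at 208, 197 and 203 CPM in siEP300.H2O2, against 247, 234 and 240.2 CPM in siNC.H2O2. In cells without H2O2 it had 116, 122 and 117 CPM in siEP300, against 101, 83.6 and 91.5 CPM in siNC. With EP300 siRNA it was lower in treated cells and higher in untreated cells, with no overlap in either (-0.25 ± 0.061 SE, edgeR adjusted p = 0.0028 and 0.37 ± 0.063 SE, edgeR adjusted p = 0.00014). TIMP4, the TIMP with the most restricted tissue range and one found in the heart, had 28, 22 and 33 counts in siEP300.H2O2 against 13, 10 and 11 in siNC.H2O2, and 19, 25 and 30 in siEP300 against 5, 7 and 7 in siNC. It was called higher in both states (1.26 ± 0.25 SE, edgeR adjusted p = 0.00058 and 2.01 ± 0.29 SE, edgeR adjusted p = 2.9e-05) and 10.3% of its exon bases overlap SYN2 on the opposite strand.

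The next question was what H2O2 changed. With EP300 siRNA 9 of the 48 tested members rose and 12 fell, 43.8% of them, against 31.1% of all genes (15.9% higher, 15.1% lower). With control siRNA 16 rose and 10 fell, 54.2%, against 35.3% of all genes (17.8% higher, 17.4% lower). At least 2-fold changes were few. With EP300 siRNA the 48 had 1 rise and 3 falls, against 179 (1.36%) and 175 (1.33%) of all 13171 genes. With control siRNA they had 2 rises and 1 fall, against 277 (2.10%) and 183 (1.39%). The median log2 fold change was -0.00588 with EP300 siRNA and 0.0115 with control siRNA, against -0.000381 and -0.00808 over all genes. These comparisons share the untreated or treated groups of the EP300 siRNA comparisons, so their values for a gene are not independent of those above.

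Of the 4 TIMPs 3 rose with H2O2. The values of TIMP3 were 0.78 ± 0.062 with EP300 siRNA and 1.39 ± 0.063 with control siRNA (SE, edgeR adjusted p = 3.6e-07 and edgeR adjusted p = 6.4e-10). TIMP1 was at 0.50 and 0.59 (edgeR adjusted p = 0.0013 and 0.00025) and TIMP2 at 0.26 and 0.37 (edgeR adjusted p = 0.00063 and 1.9e-05), while TIMP4 was not called (0.18 and 0.93). For TIMP1, TIMP2 and TIMP3 every treated library was above every untreated library of the same siRNA.

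Of the MMPs, MMP14 rose most clearly, by 0.36 ± 0.055 with EP300 siRNA and 0.86 ± 0.056 with control siRNA (SE, edgeR adjusted p = 0.00019 and edgeR adjusted p = 2.5e-08). MMP2 was at 172 ± 13.6 CPM in siNC.H2O2 against 173 ± 8.04 in siNC and was not called (-0.0097 ± 0.073 SE, edgeR adjusted p = 0.93); with EP300 siRNA it was lower after H2O2 (-0.32 ± 0.08 SE, edgeR adjusted p = 0.0066). MMP15 was called higher with EP300 siRNA (0.35 ± 0.086 SE, edgeR adjusted p = 0.0072), and its value with control siRNA was 0.20 ± 0.076 (SE, edgeR adjusted p = 0.054). MMP11 fell with control siRNA (-0.61 ± 0.12 SE, edgeR adjusted p = 0.0011) and had -0.41 with EP300 siRNA. MMP19 fell with EP300 siRNA (-0.44 ± 0.086 SE, edgeR adjusted p = 0.0014), and MMP3 rose there (1.01 ± 0.31 SE, edgeR adjusted p = 0.023), a call lost without siEP300 library 5 or 6 or siEP300.H2O2 library 12 (edgeR adjusted p of 0.068, 0.10 and 0.10) and with DESeq2 (adjusted p = 0.063). MMP23B and MMP24 were called with control siRNA (-0.63 and 0.39), but 11 and 7 alternatives ended those calls, and without siNC library 2 they had edgeR adjusted p of 0.24 and 0.14. MMP16, MMP17 and MMP25 were called with neither siRNA, and the read-through symbol MMP24-AS1-EDEM2 was called lower with each (-1.35 and -1.08). Its call with EP300 siRNA was lost without siEP300 library 4 or 5 (edgeR adjusted p of 0.055 and 0.056), and that with control siRNA without siNC library 1 or siNC.H2O2 library 9 (edgeR adjusted p of 0.054 and 0.075).

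ADAMTS1 rose by 0.51 ± 0.068 with EP300 siRNA and 0.78 ± 0.069 with control siRNA, and ADAMTS4 by 0.59 ± 0.10 and 0.82 ± 0.11 (SE, edgeR adjusted p = 6.2e-05, 7.2e-07, 0.00053 and 3.7e-05). Both are aggrecan- and versican-cutting enzymes. ADAMTS15, which cuts the same substrates, fell by 1.54 ± 0.14 (SE, edgeR adjusted p = 1.5e-06) with EP300 siRNA and 0.51 ± 0.082 (SE, edgeR adjusted p = 0.00023) with control siRNA, so members with like substrates went in opposite directions. ADAMTS12 rose with control siRNA (0.50 ± 0.089 SE, edgeR adjusted p = 5e-04) and was not called with EP300 siRNA (0.072). ADAMTS14 fell with EP300 siRNA (-1.39 ± 0.39 SE, edgeR adjusted p = 0.015), a call lost without siEP300 library 5 (edgeR adjusted p = 0.080) or siEP300.H2O2 library 10 (edgeR adjusted p = 0.059). ADAMTSL4 fell with each siRNA, by 0.78 ± 0.071 (SE, edgeR adjusted p = 1.4e-06) and 0.40 ± 0.067 (SE, edgeR adjusted p = 0.00031), while ADAMTS3 fell with EP300 siRNA by 0.77 ± 0.14 (SE, edgeR adjusted p = 6e-04). With control siRNA ADAMTS3 was called lower too (-0.38 ± 0.14 SE, edgeR adjusted p = 0.04), but 10 alternatives ended that call, among them leaving out siNC library 3 or siNC.H2O2 library 7 (edgeR adjusted p of 0.13 and 0.14). ADAMTS5 fell with EP300 siRNA (-0.41 ± 0.11 SE, edgeR adjusted p = 0.0093), a call lost without siEP300 library 6 (edgeR adjusted p = 0.052). ADAMTS6 was called higher with control siRNA (0.48 ± 0.12 SE, edgeR adjusted p = 0.007), but not with log2(FPKM + 1), at 0.27, or with log2(FPKM + 0.1), at 0.36 (limma adjusted p of 0.063 and 0.071); it was 0.76 without siNC library 1 and siNC.H2O2 library 7 together (edgeR adjusted p = 5e-06). ADAMTS7 was called higher as well (0.30 ± 0.087 SE, edgeR adjusted p = 0.016), but not without siNC library 2 or siNC.H2O2 library 9 (edgeR adjusted p of 0.052 and 0.053). ADAMTSL1 was called lower (-0.33) and turned to 0.013 with log2(FPKM + 1) (limma adjusted p = 0.94).

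ADAM33, an ADAM expressed in mesenchymal cells, fell with each siRNA (-0.81 ± 0.07 and -0.76 ± 0.068), and so did ADAM11 (-0.53 ± 0.13 and -0.58 ± 0.12) and ADAM22 (-0.56 ± 0.14 and -0.61 ± 0.14), and ADAM11 and ADAM22 lack protease activity and are known from nerve cells. With control siRNA ADAM8 rose (0.81 ± 0.12 SE, edgeR adjusted p = 8.2e-05), as did ADAM10 (0.37 ± 0.093 SE, edgeR adjusted p = 0.0067) and ADAM19 (0.39 ± 0.078 SE, edgeR adjusted p = 0.0013). Their values with EP300 siRNA, none called, were 0.37, 0.067 and -0.037. ADAM12 was called higher with control siRNA (0.30 ± 0.11 SE, edgeR adjusted p = 0.042), but 11 alternatives ended that call. Without siNC library 2 its value was 0.19 (edgeR adjusted p = 0.19), and without siNC library 1 and siNC.H2O2 library 7 together it was 0.54 (edgeR adjusted p = 6e-05). ADAM21 and ADAM23 were called higher with control siRNA too (1.15 and 0.53), and both calls were lost with DESeq2 (adjusted p of 0.051 and 0.058) and when single control siRNA libraries were left out, among them siNC library 3 (edgeR adjusted p of 0.11 and 0.097). ADAM9 fell with EP300 siRNA (-0.26 ± 0.068 SE, edgeR adjusted p = 0.009), ADAM15 rose there (0.26 ± 0.066 SE, edgeR adjusted p = 0.0084), and ADAM17 was called with neither siRNA (-0.18 and -0.003).

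**Figure D4:**
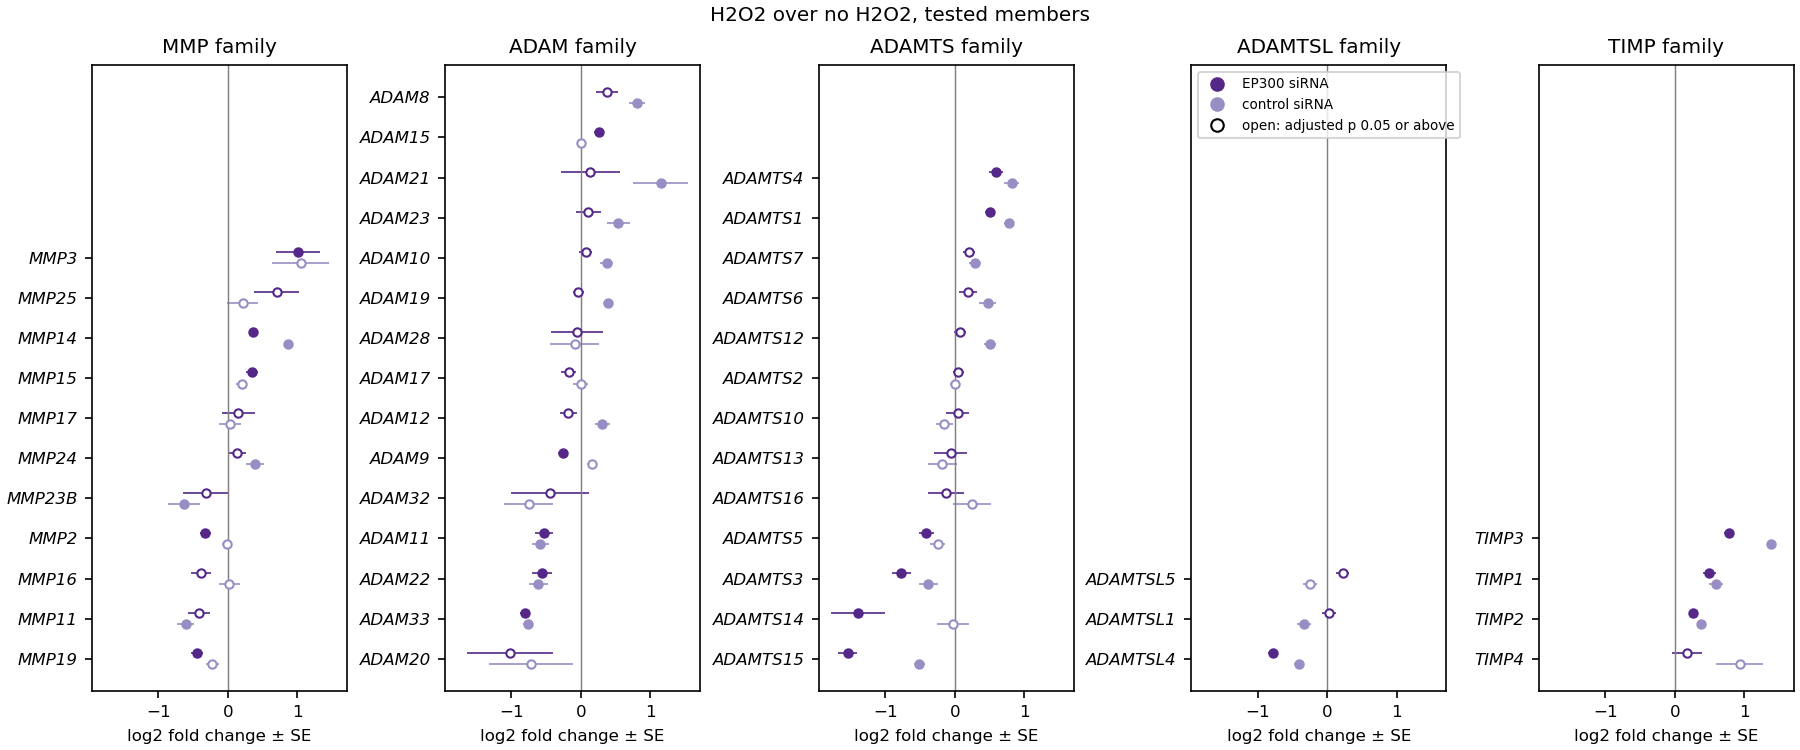
Log2 fold change of H2O2 over no H2O2 with its SE for the tested MMP, ADAM, ADAMTS, ADAMTSL and TIMP genes, with EP300 siRNA (dark) and control siRNA (light); open points had an adjusted p of 0.05 or above. TIMP3 reaches 1.39 with control siRNA and 0.78 with EP300 siRNA, and ADAMTS15 lies at -0.51 and -1.54.

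Whether the EP300 siRNA effect differed between the H2O2 states was tested as an interaction, the effect with H2O2 minus that without. Of the 48 tested members 6 were called, all lower, 12.5%, against 3.33% of all genes (1.12% higher, 2.21% lower). The values were -1.03 ± 0.16 (SE, edgeR adjusted p = 0.0031) for ADAMTS15, -0.61 ± 0.087 (SE, edgeR adjusted p = 0.0015) for TIMP3 and -0.50 ± 0.078 (SE, edgeR adjusted p = 0.003) for MMP14. They were -0.43 ± 0.11 (SE, edgeR adjusted p = 0.047) for ADAM19, -0.42 ± 0.10 (SE, edgeR adjusted p = 0.026) for ADAM9 and -0.38 ± 0.10 (SE, edgeR adjusted p = 0.048) for ADAMTSL4. The median over the tested members was -0.224, against -0.00082 over all genes. Read the other way, the same numbers say that the H2O2 effect on these 6 genes was lower with EP300 siRNA than with control siRNA. Without siNC library 2 or 3, siEP300 library 4, 5 or 6, siNC.H2O2 library 8 or siEP300.H2O2 library 11 or 12, 3 members were called. In those fits 1.48% to 1.9% of all genes were called. ADAMTS15, TIMP3 and MMP14 kept an adjusted p under 0.05 in each fit that left out 1 library, while ADAM9, ADAM19 and ADAMTSL4 did not.

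Genes that activate, hold or inhibit these proteases were followed as a list of 27, of which 23 were tested. With EP300 siRNA 3 rose and 15 fell in treated cells and 4 rose and 12 fell in untreated cells, with medians of -0.417 and -0.281. The shares called were 78.3% and 69.6%, against 59.0% and 61.5% of all genes. TFPI2, an inhibitor of plasmin and of some MMPs, rose (2.10 with H2O2 and 2.16 without), and FRMD8, which stabilises the ADAM17 partner iRhom, fell (-1.04 and -1.18). FURIN, the convertase that removes the propeptides of MMP14 and ADAMs, fell as well (-0.43 and -0.57), as did TSPAN33, a tetraspanin that guides ADAM10 (-1.25 and -2.14). PLAU, urokinase, which makes the MMP activator plasmin, was at -2.37 with H2O2 and -0.68 without (edgeR adjusted p = 3.1e-11 and 1.2e-05), and the difference was called (-1.69 ± 0.12 SE, edgeR adjusted p = 1.2e-05). With H2O2, 11 of the 23 rose and 4 fell with EP300 siRNA and 10 rose and 2 fell with control siRNA. These were 65.2% and 52.2% of the list, against 31.1% and 35.3% of all genes. CD44, a surface receptor that docks MMPs, rose by 0.91 and 1.68, and the urokinase receptor PLAUR by 1.03 and 1.49.

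Of 12 tested other matrix proteases and their enhancers, EP300 siRNA raised 1 and lowered 8 in treated cells and raised 2 and lowered 8 in untreated cells. The shares called were 75% and 83.3%, against 59.0% and 61.5% of all genes. The serine proteases HTRA1 (-1.92 and -1.84) and HTRA3 (-2.11 and -2.15) fell, and the procollagen proteinase enhancer PCOLCE fell too (-0.66 and -0.71). H2O2 raised 2 and lowered 6 of these 12 genes with EP300 siRNA and raised 1 and lowered 5 with control siRNA. These were 66.7% and 50% of them, against 31.1% and 35.3% of all genes. Of 14 tested matrix substrates 4 rose and 6 fell with EP300 siRNA in treated cells and 8 rose and 3 fell in untreated cells. The shares called were 71.4% and 78.6%, against the same shares of all genes. The proteoglycan VCAN, cut by ADAMTS1, ADAMTS4 and ADAMTS15, rose (1.03 and 1.77), and thrombospondin THBS1 fell (-1.59 and -1.19). H2O2 raised 2 and lowered 5 of the matrix substrates with EP300 siRNA and raised 7 and lowered 3 with control siRNA. These were 50% and 71.4% of them, against 31.1% and 35.3% of all genes. COL3A1 (-1.25 and -1.33) and DCN (-0.82 and -1.53) were among those that fell with each siRNA. With control siRNA 3 of the 14 rose and 2 fell at least 2-fold, against 2.10% and 1.39% of all genes. With EP300 siRNA 1 rose and 1 fell by that much, against 1.36% and 1.33%. The highest values were 1.084 with EP300 siRNA and 1.435 with control siRNA.

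Membrane proteins that ADAMs release had 17 tested genes, of which 3 rose and 7 fell with EP300 siRNA in treated cells and 7 rose and 7 fell in untreated cells. The shares called were 58.8% and 82.4%, against 59.0% and 61.5% of all genes, so the share with H2O2 was that of all genes. H2O2 raised 5 and lowered 1 with EP300 siRNA and raised 11 and lowered 1 with control siRNA. These were 35.3% and 70.6% of the 17, against 31.1% and 35.3% of all genes. Among those raised were the ADAM17 substrate HBEGF (0.85 and 1.10) and syndecan SDC1 (0.40 and 0.77). Of 17 tested AP-1, ETS and related transcription factors, which bind many MMP promoters, 4 rose and 7 fell with EP300 siRNA in treated cells and 7 rose and 2 fell in untreated cells. The shares called were 64.7% and 52.9%, near or below those of all genes. In each state 1 of the 17 was called at least 2-fold higher, against 2.62% and 2.93% of all genes. Falls of that size were called for 0 of them, against 6.80% and 6.94%. The highest log2 fold change in the list was 2.125 with H2O2 and 1.762 without. H2O2 raised 11 and lowered 1 of the factors with EP300 siRNA and raised 13 and lowered 2 with control siRNA. These were 70.6% and 88.2% of them, against 31.1% and 35.3% of all genes. FOSL1 (2.19 and 2.24), ETV4 (1.51 and 1.66) and ETV5 (1.30 and 1.52) rose by more than 2-fold in each case. All genes tested give the background for these counts, at the percentages printed with each comparison. CD44 is counted both among the partners of the proteases and among the membrane proteins that ADAMs release.

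Sums of cell type markers differed between the groups, but a few genes carried most of each sum. Levels of single markers are means over the 12 libraries. Summed endothelial markers were at 16 to 17.6 CPM in siEP300.H2O2, 34.8 to 39.5 in siNC.H2O2, 19.8 to 21.7 in siEP300 and 37.6 to 44.9 in siNC. EGFL7 was the highest of them at 16.01 CPM, while CDH5 was at 0.0409 and ERG at 0.0138 CPM. Summed fibroblast markers were at 7634 to 8049 CPM in siEP300.H2O2, 9275 to 9752 in siNC.H2O2, 9624 to 9905 in siEP300 and 9069 to 9359 in siNC. COL1A1 at 4146 CPM and VIM at 2879 CPM were the highest of them. Smooth muscle markers summed to 992 to 1114 CPM in siEP300.H2O2, 847 to 898 in siNC.H2O2, 812 to 820 in siEP300 and 624 to 661 in siNC. TAGLN at 425.5 CPM and MYLK at 242.8 CPM led them, and MYH11 was at 0.287 CPM. Summed cardiomyocyte markers were at 168 to 175 CPM in siEP300.H2O2, 296 to 338 in siNC.H2O2, 179.5 to 186 in siEP300 and 304 to 324 in siNC. GJA1 at 153.7, NPPB at 42.6 and GATA6 at 34.2 CPM led them, with TNNT2, MYH6, MYH7 and MYL2 near 0. Epithelial markers summed to 446.5 to 524 CPM in siEP300.H2O2, 575 to 627 in siNC.H2O2, 327 to 332 in siEP300 and 355 to 398 in siNC. Nearly all of that came from KRT18 at 346.6 CPM and KRT8 at 95.8 CPM. KRT19 was at 5.01, EPCAM at 1.73, CDH1 at 0.554 and ESRP1 at 0.0368 CPM. The part of all these markers in the changes of the proteases and inhibitors was not tested.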

How the data were processed

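RNA-seq of 12 AC16 libraries was deposited as estimated counts and as FPKM per gene symbol. The submitters' processing notes name HISAT, Bowtie2 and GRCh38.p13; which program counted reads, with which annotation and strand setting, was not given in the sources used here. The estimated counts deposited by the authors, 12.0% to 13.8% of them not whole, were rounded. The FPKM values deposited by the authors were used for levels between genes and as an alternative.

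Members and gene lists were chosen with earlier results of these data known. Genes passing filterByExpr, 13171 of 17197, were fitted with edgeR 4.0.16 (TMM, quasi-likelihood test, all 12 libraries, 1 mean per group). P-values were adjusted by Benjamini and Hochberg over all genes tested, with a threshold of 0.05. Scaling factors ran from 0.969 to 1.05 and the biological coefficient of variation was 6.72%. Replicate pairs differed by more than sampling noise, with chi-square per degree of freedom from 1.78 to 18.1. Scripts were tested on simulated data.

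Values of every library were given for each member called in a two-group comparison with a log2 fold change of at least 1 in size and a mean of at least 1 CPM, and for each with a mean of at least 50 CPM. From each list up to 4 called genes with the smallest adjusted p in a comparison were named. Alternatives were DESeq2 1.42.0, its size factors in edgeR, no filter, limma 3.58.1 on log2(FPKM + 1) and on log2(FPKM + 0.1), the within-group axis as a covariate, only the groups compared, and each library left out. Coordinates are from GENCODE on GRCh38, matched by symbol for 62 of the 63 members.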

Additional observations from a re-analysis of the deposited data

Results flagged for a closer look

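For 6 members the effect of EP300 siRNA differed between cells with and without H2O2 by edgeR's interaction test. The difference of the log2 fold changes, with H2O2 minus without, was -1.03 for ADAMTS15 (edgeR adjusted p = 0.0031), -0.61 for TIMP3 (edgeR adjusted p = 0.0015) and -0.50 for MMP14 (edgeR adjusted p = 0.003). It was -0.43 for ADAM19 (edgeR adjusted p = 0.047), -0.42 for ADAM9 (edgeR adjusted p = 0.026) and -0.38 for ADAMTSL4 (edgeR adjusted p = 0.048). Groups of 3 libraries are too small for a test of a single outlying library.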

How the results depend on the processing

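The number of members called stayed within 1.5 times its value in each two-group comparison. Over the alternatives it ran from 27 to 33 for EP300 siRNA with H2O2, 29 to 34 without, 18 to 27 for H2O2 with EP300 siRNA and 21 to 34 with control siRNA. In the same order, the share of all genes called ran from 45.3% to 68.1%, 47.3% to 70%, 22.7% to 45.7% and 26.4% to 49.1%. With no filter 17183 genes were tested. The interaction depended most on the setting. Its 6 members called, 0 higher and 6 lower, became 15 (3 higher, 12 lower) with the within-group axis as a covariate. That axis was computed from the same libraries with group means removed, so fitting it lowers the remaining spread by construction. The 6 became 16 (2 higher, 14 lower) without siNC library 1 and siNC.H2O2 library 7 together, a choice made after seeing the data. Over all genes the share called rose as well, to 13.1% with the axis and 15.1% without those libraries, against 3.33%. With FPKM and either pseudocount 1 was called higher and 3 lower. Of all genes 4.21% and 3.49% were called with pseudocounts of 1 and 0.1. Leaving out each library in turn gave 3 to 7 members, 3 to 7 of them lower, while 1.48% to 5.34% of all genes were called. Of the list genes 15 were called, all lower. They were 4 of 23 partners, 1 of 12 other matrix proteases and enhancers and 5 of 14 matrix substrates. Also called were 5 of 17 released membrane proteins and 1 of 17 transcription factors. The shares were 17.4%, 8.33%, 35.7%, 29.4% and 5.88%, against 3.33% of all genes, with CD44 in 2 lists. The count was 23 with DESeq2 (4.68% of all genes called), 36 with the axis and 34 without libraries 1 and 7. It was 8 to 26 with each library left out. The causes were not tested.

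For ADAMTSL1 the H2O2 effect with control siRNA turned to 0.013 with log2(FPKM + 1) and 0.014 with log2(FPKM + 0.1). For ADAMTS15 the interaction was -0.12 with log2(FPKM + 1) (limma adjusted p = 0.52). Among single members' values under alternatives, 4484 kept direction and side of the threshold, 109 passed it, 137 no longer passed it and 2 changed direction. Members with under 1 CPM rest on few counts, so differences there were often not detectable at this depth. No paired analysis was possible because the libraries are numbered 1 to 12 and no number is shared between groups.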
